A study of Mus musculus with 41 samples.

Results

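The genes described here are 10 interferon-inducible GTPases of mouse myeloid cells: the guanylate-binding proteins Gbp2, Gbp3, Gbp4, Gbp5, Gbp6 and Gbp7, and the immunity-related GTPases Irgm1, Igtp, Iigp1 and Tgtp1. They were taken by symbol from tables of 55453 genes, all 10 symbols were found, and all 10 carried an adjusted p-value in each of 3 comparisons. Tumours of MC38-luc, a mouse colon adenocarcinoma line with a luciferase gene, grew in the rectum of female C57BL6 mice whose age is not given in the labels. Irradiated tumours received 5 daily fractions of 5 Gy from day 9 to day 13 after implantation, untreated tumours received none, and both were collected on day 14. Cells positive for CD45 and CD11b were sorted into tumour-associated macrophages (TAM; F4/80+ without Ly6C and Ly6G), inflammatory monocytes (Ly6C+ without Ly6G) and granulocytes (Ly6C+ and Ly6G+). The 41 libraries came from 15 tumour numbers, with 5 untreated and 10 irradiated TAM libraries, 5 and 9 of inflammatory monocytes, and 5 and 7 of granulocytes. The subsets share tumour numbers, so the 3 comparisons are not independent of each other.

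Both families are made in response to interferons. Interferon gamma signals through JAK kinases to genes with GAS elements, while type I interferon acts largely through a complex with STAT2 and IRF9 that binds ISRE elements. Guanylate-binding proteins are large GTPases that assemble on bacteria, parasite vacuoles and lipopolysaccharide, and they feed the caspase-4 (caspase-11) inflammasome. Immunity-related GTPases are smaller: most, such as Iigp1 and Tgtp1, are effectors that coat and break pathogen vacuoles, and the Irgm proteins (Irgm1, and Igtp, also called Irgm3) sit on the cell's own membranes and hold the effectors inactive. Macrophages, monocytes and granulocytes all make them.

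Promoter sequences are shown because these genes are defined by their answer to interferon, and the elements can be seen in the sequence. The RefSeq promoter table (build GRCm38.p6, 250 bases before to 50 bases after the annotated start) held windows for 7 of the 10 genes. The windows were searched for an ISRE core, GAAANNGAAA or its reverse complement TTTCNNTTTC, and for a GAS element, TTCNNNGAA, which reads the same on both strands. Capitals mark matches, which overlap each other in Gbp3 and Irgm1, and each stretch runs 5′ to 3′ on the gene's strand.
Gbp2 (chr3:142620596-142620621, plus strand): tcttttagTTTCACTTTCactgtctt
Gbp3 (chr3:142559991-142560022, plus strand): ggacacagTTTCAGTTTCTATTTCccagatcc
Gbp5 (chr3:142496761-142496786, plus strand): ttgtgtagTTTCAATTTCagtttaga
Gbp7 (chr3:142530222-142530300, plus strand): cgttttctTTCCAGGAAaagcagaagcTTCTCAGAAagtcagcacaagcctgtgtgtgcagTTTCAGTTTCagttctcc
Irgm1 (chr11:48871427-48871458, minus strand): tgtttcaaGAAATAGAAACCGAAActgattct
Igtp (chr11:58199503-58199539, plus strand): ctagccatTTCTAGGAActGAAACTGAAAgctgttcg
Tgtp1 (chr11:48992306-48992342, minus strand): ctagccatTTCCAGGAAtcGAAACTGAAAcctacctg
All 7 genes had an ISRE core, which 3.99% of the 27025 genes with a window (3.44% of 32851 windows) contained. A GAS match was found in 4 of the 7 (Gbp5, Gbp7, Igtp and Tgtp1), against 9.55% of genes and 8.3% of windows. The same 4 held both, against 0.54% of genes and 0.454% of windows. Igtp and Tgtp1 shared one arrangement, with 2 bases between the GAS match and the ISRE core. The GAS matches of Gbp5 lay outside the stretch shown, and a second annotated start of Gbp3 had neither motif. A match is a description of the letters in these windows and does not show a factor bound there.

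**Figure D1:**
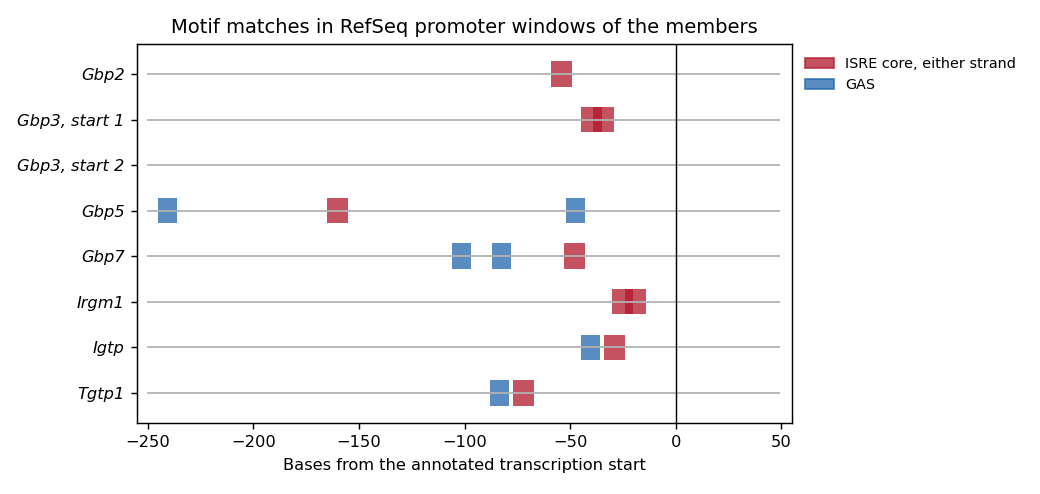
Positions of ISRE core and GAS matches in the RefSeq promoter windows of the 7 genes that have one, as bases from the annotated transcription start (x axis), 1 line per window. Each gene holds an ISRE core in its window, or in 1 of the 2 windows of Gbp3, and Gbp5, Gbp7, Igtp and Tgtp1 hold GAS matches as well.

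The coding sequences separate the regulators from the effectors at the nucleotide-binding P-loop. The codons below were read from GENCODE M21 transcripts, in the longest open reading frame, and capitals mark the codon that is lysine in most GTPases.
Gbp2 P-loop: ggcctctaccgcacaggcAAAtcc
Gbp5 P-loop: ggtctttatcgcacaggcAAAtcc
Gbp6 P-loop: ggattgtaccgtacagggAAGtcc
Irgm1 P-loop: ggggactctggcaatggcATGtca
Igtp P-loop: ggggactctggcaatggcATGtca
Tgtp1 P-loop: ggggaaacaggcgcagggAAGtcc
Irgm1 and Igtp carry a methionine codon and were identical over these 24 bases, whereas the other 8 genes carry lysine. Gbp2 and Gbp5 are the guanylate-binding proteins of this set known to be prenylated, and their frames end in a cysteine codon (capitals) at the fourth place before the stop.
Gbp2 end: TGCactatactctga
Gbp5 end: TGTgttataagctaa

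The values are the authors' deposited tables of irradiated against untreated cells, 1 per subset. They hold a mean normalised count over libraries, a log2 fold change (whether shrunken towards 0 is not stated), a Wald statistic (an effect divided by its standard error), a p-value and a p-value adjusted over all genes tested. Single libraries were not analysed here, so no value per sample, SD or depth is given, and the Wald statistic carries the spread between libraries. A gene is said to rise or fall where its adjusted p was under 0.05, with the direction from the sign of the Wald statistic. In bulk RNA of a sorted subset, a change in the cells that make a transcript and a change in transcript per cell cannot be told apart. The labels do not name the animals, and separate tumour numbers were taken as separate tumours.

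All 10 GTPases were expressed, and Gbp2 was the highest. Per kilobase of transcript, the mean normalised count in the authors' deposited tables was 9470 for Gbp2, 6050 for Irgm1 and 4810 for Igtp. Gbp7 followed at 3170, Gbp3 at 2380, Iigp1 at 1500, Gbp5 at 1420 and Gbp4 at 1380 on the same scale of the authors' deposited tables. Tgtp1 (263) and Gbp6 (236) had the lowest mean counts per kilobase in the authors' deposited tables. These means run over the libraries of all 3 subsets, since the authors' deposited tables list one identical mean per gene, so levels cannot be compared between subsets and no spread is known for this order.

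After irradiation, 11 of 30 tests (10 genes in 3 subsets) passed in the authors' deposited tables, all of them higher, and 19 did not pass. The Wald statistic was above 0 in 28 of the 30, the ones that did not pass included, in the authors' deposited tables. Near 0, the share of all genes tested at or above a gene was 52.5% for Iigp1 in TAM (Wald statistic 0.016). It was 53.6% for Gbp3 in inflammatory monocytes (-0.016) and 46.7% for Cdh5 among granulocytes (0.007), from the authors' deposited tables. Because the subsets share tumour numbers, the 30 signs are not 30 separate results. Their count was not tested against these shares. In TAM, 6 of 10 rose (Gbp2, Gbp5, Gbp6, Irgm1, Igtp and Tgtp1), where 13.9% of 16851 genes tested rose and 12.5% fell in the authors' deposited table. Among inflammatory monocytes, 2 of 10 rose (Gbp6 and Iigp1), where 4.13% of 14506 genes rose and 1.77% fell in the authors' deposited table. In granulocytes, 3 of 10 rose (Gbp3, Gbp5 and Gbp6), where 7.32% of 15679 genes rose and 9.9% fell in the authors' deposited table. None of the 10 fell in any of the authors' deposited tables, nor did one have an unadjusted p under 0.05 in the lower direction. In the higher direction, 7 in TAM, 6 in granulocytes and 2 in inflammatory monocytes had one. Many genes passed that cut. By Wald statistic, 19.0% of genes tested in TAM lay at or above Krt19 (Wald test, unadjusted p = 0.0459). In granulocytes 13.0% lay at or above Gbp7 (unadjusted p = 0.0482), and in inflammatory monocytes 11.6% at or above Rnf213 (unadjusted p = 0.0466). The share in the lower direction was not counted. Gbp6 rose in all 3 subsets, Gbp5 in TAM and granulocytes, 6 genes in a single subset, and Gbp4 and Gbp7 in none of the authors' deposited tables. How the calls of all genes overlap between subsets was not counted, and the share called differs between subsets. A call in a single subset is therefore not read as particular to that subset.

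The sizes were moderate. The median log2 fold change of the 10 genes in the authors' deposited tables was 0.69 (TAM), 0.38 (inflammatory monocytes) and 0.64 (granulocytes), where the median of all genes tested was 0.03, 0.02 and -0.03. Their median Wald statistics were 2.55, 1.2 and 2.05 in the authors' deposited tables, beside 0.14, 0.11 and -0.14 for all genes tested. Several TAM calls lay near the threshold. When p-values were adjusted over every gene with a p-value, the number that rose in the authors' deposited table for TAM went from 6 to 3, with Gbp2, Irgm1 and Igtp no longer called, and in granulocytes Gbp3 was no longer called. With the Wald statistics of the authors' deposited tables divided by their robust SD over genes of mean count 50 or more, none of the 10 was called in any subset.

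**Figure D2:**
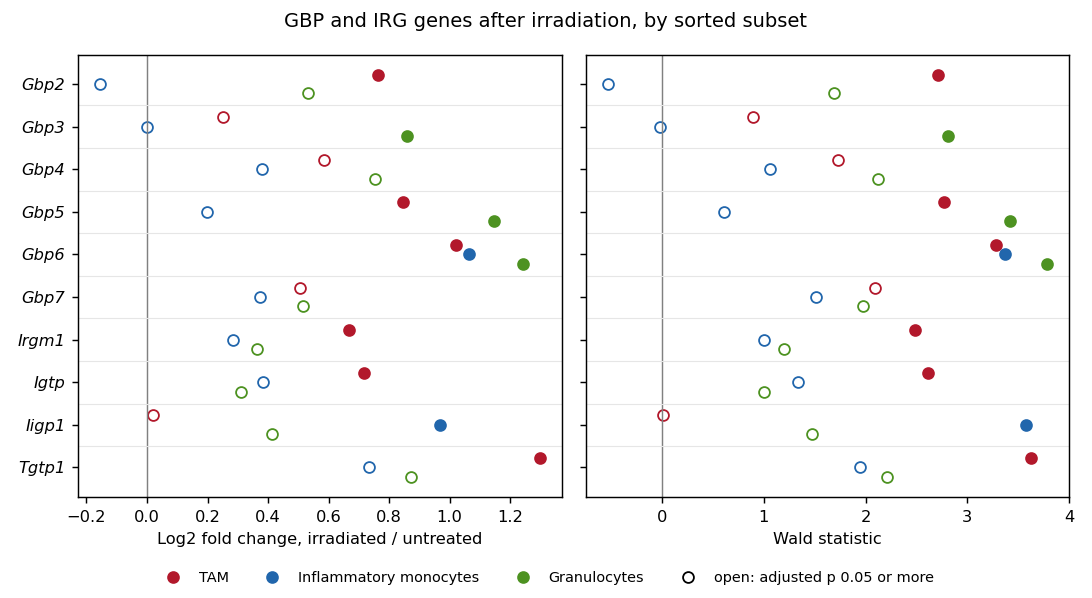
Deposited log2 fold changes (left) and Wald statistics (right) of the 10 GTPases, irradiated against untreated, with 1 point per gene and subset and filled points for adjusted p under 0.05. Most points lie right of 0; Gbp6 is filled in all 3 subsets, and Iigp1 in inflammatory monocytes.

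**Figure D3:**
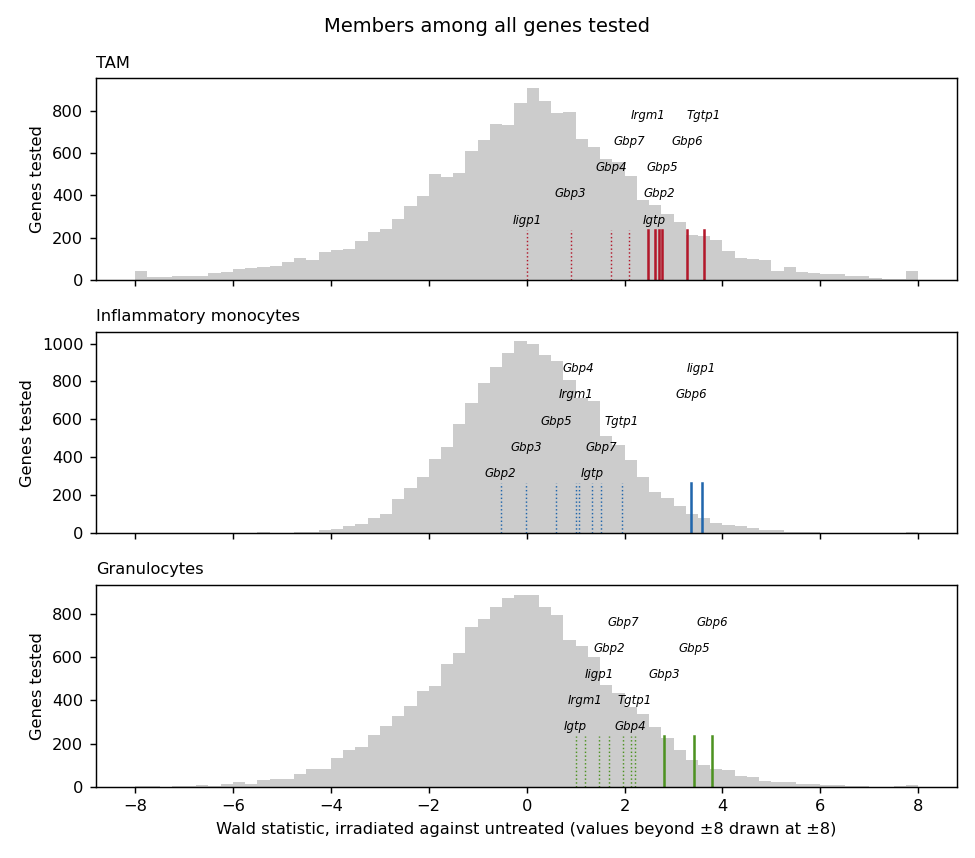
Histograms of the Wald statistics of all genes tested in each subset (x axis, irradiated against untreated; y axis, number of genes), with the 10 GTPases marked. The marks sit mainly in the right part of each histogram, between 0.02 and 3.62 in TAM, -0.53 and 3.58 in inflammatory monocytes, and 1.00 and 3.79 in granulocytes.

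Among the 6 guanylate-binding proteins, Gbp6 and Gbp5 had the largest log2 fold changes in TAM and granulocytes. Gbp6, whose protein joins the other GBPs on parasite vacuoles, had log2 fold changes of 1.02 in TAM, 1.24 in granulocytes and 1.06 in inflammatory monocytes, with adjusted p of 0.0065, 0.00276 and 0.0215 in that order in the authors' deposited tables. It ranked 1344 of 16851 genes from the highest Wald statistic in TAM, 368 of 15679 in granulocytes and 379 of 14506 in inflammatory monocytes in the authors' deposited tables. Gbp5, a prenylated protein that promotes inflammasome assembly, had log2 fold changes of 0.85 in TAM and 1.15 in granulocytes (adjusted p = 0.0256 and 0.00777), and 0.20 in inflammatory monocytes (adjusted p = 0.805), in the authors' deposited tables.

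Gbp2, the most abundant of the family here and prenylated as well, rose in TAM with a log2 fold change of 0.76 (adjusted p = 0.0295) in the authors' deposited table. Its log2 fold change was -0.16 in inflammatory monocytes (Wald statistic -0.53, adjusted p = 0.833) and 0.53 in granulocytes (adjusted p = 0.251) in the authors' deposited tables. Gbp3 rose in granulocytes, with a log2 fold change of 0.86 (adjusted p = 0.0341), against 0.25 in TAM (adjusted p = 0.56) and -0.001 in inflammatory monocytes (adjusted p = 0.997), in the authors' deposited tables. These were the only members with a negative Wald statistic in any of the authors' deposited tables. Gbp4 and Gbp7, which share the GTPase fold and lack the prenylation signal, were called nowhere: log2 fold changes in the authors' deposited tables were 0.58, 0.38 and 0.75 for Gbp4 and 0.51, 0.38 and 0.51 for Gbp7 (TAM, inflammatory monocytes, granulocytes). Their smallest adjusted p in the authors' deposited tables was 0.108, for Gbp7 in TAM. By family, 3 of 6 GBP genes rose in TAM, 3 in granulocytes and 1 in inflammatory monocytes in the authors' deposited tables.

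Of the 4 immunity-related GTPases, both regulators and the effector Tgtp1 rose in TAM. Irgm1, which guards the cell's own membranes and lysosomes, had a log2 fold change of 0.67 in TAM (adjusted p = 0.0494), 0.28 in inflammatory monocytes (adjusted p = 0.634) and 0.36 in granulocytes (adjusted p = 0.452) in the authors' deposited tables. Igtp, a regulator found on the endoplasmic reticulum and lipid droplets, had 0.72 (adjusted p = 0.0369), 0.38 (adjusted p = 0.493) and 0.31 (adjusted p = 0.547) as log2 fold changes in the same order in the authors' deposited tables. Both Irgm1 and Igtp were called in TAM, at adjusted p just under the threshold for Irgm1. Irgm2, a relative outside the members that also carries the methionine codon, was not called there (log2 fold change 0.52, adjusted p = 0.1003) in the authors' deposited table.

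Tgtp1, an effector that loads onto parasite vacuoles, had the largest log2 fold change of the members in TAM, 1.30 (adjusted p = 0.00234), with 0.73 in inflammatory monocytes (adjusted p = 0.258) and 0.87 in granulocytes (adjusted p = 0.11) in the authors' deposited tables. Iigp1, an effector that coats parasite vacuoles, was called in inflammatory monocytes instead: its log2 fold change was 0.97 in inflammatory monocytes (adjusted p = 0.0125), 0.02 in TAM (adjusted p = 0.996) and 0.41 in granulocytes (adjusted p = 0.332) in the authors' deposited tables. It ranked 300 of 14506 genes in inflammatory monocytes and 8841 of 16851 in TAM by Wald statistic in the authors' deposited tables. No IRG member was called in granulocytes, although all 4 Wald statistics were above 0 in the authors' deposited table.

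Whether a member's effect differed in size between subsets was not tested, because the deposited folds come without standard errors. Effects of opposite direction could be tested, with the weaker p-value of a gene as its p where its Wald signs differ between subsets. By that test, 0 of 14506 genes (0%) were opposite between TAM and inflammatory monocytes, 15 of 15679 (0.0957%) between TAM and granulocytes, and 0 of 14506 (0%) between inflammatory monocytes and granulocytes, from p-values of the authors' deposited tables. At an unadjusted p under 0.05 these counts were 132, 489 and 66 from the authors' deposited tables. No member was among the genes called or those at an unadjusted p under 0.05; Gbp2 and Gbp3 had opposite signs between inflammatory monocytes and both other subsets.

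Many relatives of these genes lie near them on chromosomes 3, 5, 11 and 18, ordered here by the RefSeq table. Gbp5, Gbp7, Gbp3, Gbp2b and Gbp2 follow each other on chromosome 3. Within this cluster Gbp2b, a close relative of Gbp2, had log2 fold changes of -0.65 in TAM (adjusted p = 0.331), 0.41 in inflammatory monocytes (adjusted p = 0.674) and -0.23 in granulocytes (adjusted p = 0.843) in the authors' deposited tables, so neighbours of one cluster did not all carry the same sign. On chromosome 5 the order is Gbp8, Gbp9, Gbp4, Gbp10, Gbp6 and Gbp11. Gbp11, a transcribed pseudogene in RefSeq, rose in all 3 subsets, with log2 fold changes of 2.40 (adjusted p = 4.37e-06), 1.73 (adjusted p = 0.00863) and 1.86 (adjusted p = 0.00235) in TAM, inflammatory monocytes and granulocytes in the authors' deposited tables. Gbp9 rose in TAM (log2 fold change 0.86, adjusted p = 0.0121) and granulocytes (0.80, adjusted p = 0.0495), and had 0.37 in inflammatory monocytes (adjusted p = 0.521), in the authors' deposited tables. Gbp8 and Gbp10 were not called in any subset, with log2 fold changes from 0.19 to 1.13 in the authors' deposited tables.

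On chromosome 11 the genes form 2 separate groups, one from Irgm1 and Gm5431 through Tgtp1 and Tgtp2 to Ifi47, and a distant one of Gm12250, Igtp and Irgm2. Gm5431, a predicted member with a long reading frame, rose in all 3 subsets, with log2 fold changes of 1.51 in TAM (adjusted p = 4.96e-06), 0.91 in inflammatory monocytes (adjusted p = 0.045) and 1.79 in granulocytes (adjusted p = 1.15e-06) in the authors' deposited tables. It ranked 41 of 15679 genes by Wald statistic in granulocytes in the authors' deposited table, above all 10 members. Irgm2, the third methionine-type regulator, had log2 fold changes of 0.52, 0.26 and 0.27, and the abundant Ifi47 had 0.45, 0.39 and 0.75, with no call in any of the authors' deposited tables. Tgtp2, Gm12250, Gm12185 and the 9930111J21Rik pair were likewise not called, with log2 fold changes between 0.26 and 0.81 in the authors' deposited tables.

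The chromosome 18 cluster holds Gm4951, F830016B08Rik and Iigp1, and all 3 rose in inflammatory monocytes while none was called in TAM or granulocytes. Gm4951 had a log2 fold change of 1.55 in inflammatory monocytes (adjusted p = 0.000105, rank 61 of 14506), 0.29 in TAM (adjusted p = 0.574) and 0.76 in granulocytes (adjusted p = 0.0845) in the authors' deposited tables. F830016B08Rik had 1.58 (adjusted p = 0.00522), 0.75 (adjusted p = 0.182) and 1.00 (adjusted p = 0.0818) as log2 fold changes in the same order in the authors' deposited tables. The trio was singled out after its values were seen, and its difference between subsets was not tested. Over all 33 family genes in the tables, very large inducible GTPases and Mx genes included, 14 rose in TAM, 10 in granulocytes and 8 in inflammatory monocytes, and 0 fell, in the authors' deposited tables. Of all genes tested, 13.9%, 7.32% and 4.13% rose and 12.5%, 9.9% and 1.77% fell in that order of subsets. Mx1 and Mx2, relatives of antiviral dynamin-like GTPases and both transcribed pseudogenes in RefSeq, rose in all 3, with log2 fold changes of 1.73, 1.5 and 2.10 for Mx1 and 1.70, 1.46 and 1.41 for Mx2 in the authors' deposited tables. The very large GTPase genes Gvin1 and Gm4070 rose in TAM and granulocytes in the authors' deposited tables, and 98.3% of their 50-base words are the same. Gm17334, a predicted gene of that list whose longest frame held no P-loop, rose in TAM (log2 fold change 0.82, adjusted p = 0.00975) and had 0.36 in inflammatory monocytes and -0.13 in granulocytes, without a call, in the authors' deposited tables. Not called in any subset were Gm1966 (0.43, -0.05 and 0.21), Irgc1 (0.82, 0.04 and -0.40) and Irgq (0.28, 0.48 and 0.40), given as log2 fold changes in TAM, inflammatory monocytes and granulocytes from the authors' deposited tables.

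**Figure D4:**
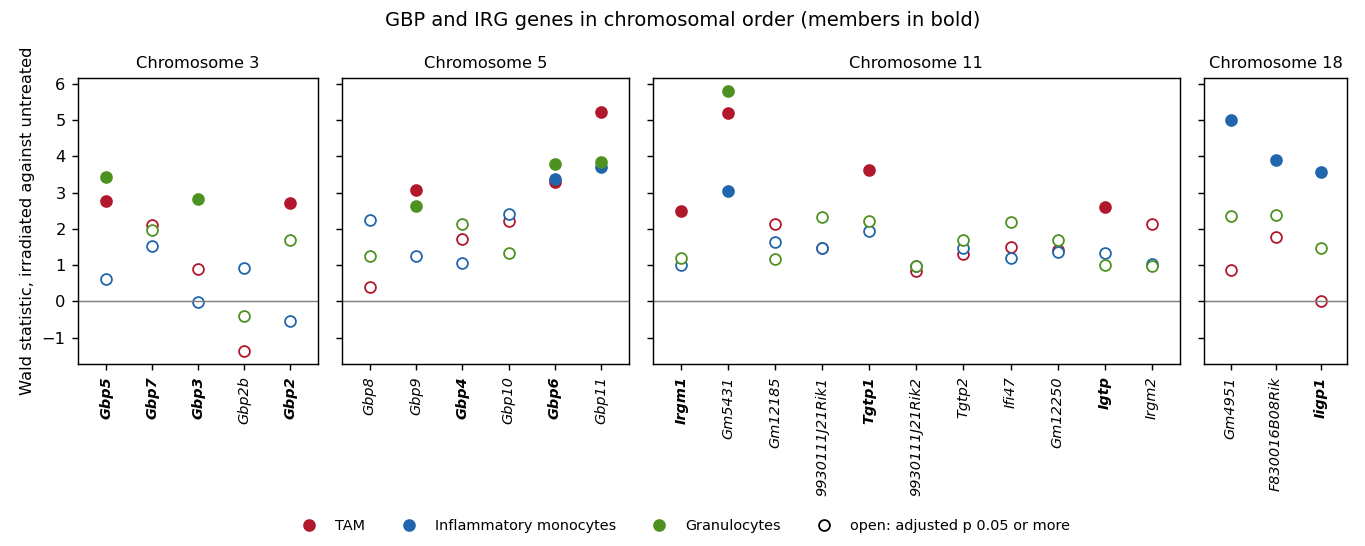
Wald statistics (y axis, irradiated against untreated) of GBP and IRG genes in their order along chromosomes 3, 5, 11 and 18 (x axis, not to scale, so the gap between the 2 groups on chromosome 11 is not drawn), by subset, with the members in bold. Gbp11 and Gm5431 stand high in each subset, and Gm4951, F830016B08Rik and Iigp1 stand highest in inflammatory monocytes.

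Near-identical copies limit 2 of the members. Of the 50-base words of the Tgtp1 transcript, 89.4% also occur in Tgtp2, and 62.3% of those of Gbp6 occur in Gbp10 (70.3% in any other family gene). Reads of these pairs may have been split or dropped, since the counting is not given in the sources used here, and so the values of Tgtp1 and Gbp6 are uncertain. Tgtp2 had log2 fold changes of 0.39, 0.46 and 0.54, and Gbp10 had 1.07, 1.13 and 0.64, in TAM, inflammatory monocytes and granulocytes in the authors' deposited tables. Igtp shared 12.3% of its words with Irgm2, Gbp4 12.8% with other family genes in all, and Gbp2, Gbp3, Gbp7 and Iigp1 at most 5.19%. Gbp5 and Irgm1 shared none, so their values rest on sequence of their own within the family. Among the relatives, Gm5431 shared 45.2% and Gbp11 34.5% of its words with other family genes, so their values are uncertain as well. The mean normalised count of Gbp11 was 110 in the authors' deposited tables.

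The interferon pathway around these GTPases was described with gene lists. For comparison with the list counts, 13.9% of all genes tested rose and 12.5% fell in TAM. The shares were 4.13% and 1.77% in inflammatory monocytes, and 7.32% and 9.9% in granulocytes. Interferon genes themselves were low: of 6, 2 carried an adjusted p in TAM, 1 in granulocytes and 0 in inflammatory monocytes, and none was called, in the authors' deposited tables. Ifng had a mean normalised count of 4.75, with a log2 fold change of 0.46 in TAM (adjusted p = 0.691) and -0.79 in granulocytes (adjusted p = 0.5), in the authors' deposited tables. Of 9 receptor, JAK and STAT genes, 7 rose in TAM, 3 in granulocytes and 1 in inflammatory monocytes, and 0 fell, in the authors' deposited tables. Jak2, a kinase of the interferon gamma receptor, rose in TAM with a log2 fold change of 1.00 (adjusted p = 2.55e-05), and Ifngr1, the receptor's ligand-binding chain, with 0.60 (adjusted p = 3e-05), in the authors' deposited table. Stat2, a transcription factor of type I signalling, rose in all 3 subsets, with log2 fold changes of 1.06, 0.89 and 1.12 in the authors' deposited tables. Of 8 IRF genes, 5, 1 and 3 rose in TAM, inflammatory monocytes and granulocytes and 0 fell in the authors' deposited tables. Irf7, which amplifies type I interferon, was the one called in each, with log2 fold changes of 1.82, 1.4 and 1.34 in the authors' deposited tables. Irf1, a factor needed for much GBP induction, rose in TAM with 0.59 (adjusted p = 0.0217) in the authors' deposited table. Outside TAM, Jak2, Ifngr1 and Irf1 were not called. Their log2 fold changes in that order were -0.05, 0.03 and 0.05 in inflammatory monocytes in the authors' deposited table. In granulocytes they were -0.49, -0.11 and -0.04 in the authors' deposited table.

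Nearly all targets of type I interferon outside the GTPases rose in TAM. Beside the counts below, 13.9% of all genes tested rose and 12.5% fell in TAM. The shares were 4.13% and 1.77% in inflammatory monocytes, and 7.32% and 9.9% in granulocytes. Of 18, 17 rose in TAM, 13 in granulocytes and 7 in inflammatory monocytes, and 0 fell, with median Wald statistics of 3.78, 3.21 and 2.71 in that order in the authors' deposited tables. Rsad2, which makes an antiviral nucleotide, had a log2 fold change of 2.08 in TAM, Ifi44 had 1.58 in inflammatory monocytes, and Ifit2, which binds foreign RNA, had 1.97 in granulocytes in the authors' deposited tables. Of 16 interferon gamma targets outside the GTPases, 5 rose and 1 fell in TAM, 1 rose in inflammatory monocytes and 5 rose in granulocytes, with median Wald statistics of 0.75, 0.94 and 1.89 in the authors' deposited tables. The one that fell in TAM was the T-cell attractant Cxcl9, with a log2 fold change of -1.06 (adjusted p = 0.0163) in the authors' deposited table. Cd274, which encodes PD-L1, rose in TAM with 1.37 (adjusted p = 8.91e-09), and Cxcl10 rose in granulocytes with 1.32 (adjusted p = 0.000285), in the authors' deposited tables. Differences between these lists were not tested, and many of their genes answer to both interferon types.

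Feedback genes went different ways. Usp18, which shuts off the type I receptor, rose in all 3 subsets with log2 fold changes of 1.44, 1.18 and 1.54 in the authors' deposited tables. Socs3, an inhibitor of JAK signalling, rose in TAM (1.09, adjusted p = 2.6e-05) and fell in granulocytes (-1.16, adjusted p = 9.5e-05) on the log2 fold scale of the authors' deposited tables. Of 8 feedback genes, 4 rose in TAM, 1 in inflammatory monocytes and, beside 2 that fell, 1 in granulocytes, in the authors' deposited tables. The shares of all genes that rose were 13.9%, 4.13% and 7.32% in that order, and 9.9% fell in granulocytes.

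Partners of the GBPs were examined in 3 further lists. For comparison, 13.9% of all genes tested rose and 12.5% fell in TAM. The shares were 4.13% and 1.77% in inflammatory monocytes, and 7.32% and 9.9% in granulocytes. Of 8 inflammasome genes linked to GBPs, 5 rose in TAM, 0 in inflammatory monocytes and, beside Il1b that fell, 2 in granulocytes, in the authors' deposited tables. Casp4, the lipopolysaccharide-sensing caspase, rose in TAM with a log2 fold change of 0.92 (adjusted p = 4.35e-05), Gsdmd, the pore former, with 0.52 (adjusted p = 3.45e-05), and Il1b with 1.5 (adjusted p = 1.12e-09), in the authors' deposited table. Il1b had a log2 fold change of -0.71 in granulocytes (adjusted p = 0.0205) in the authors' deposited table. Of 14 genes for vacuole tagging and for the autophagy conjugation that places IRG proteins, 9 rose in TAM, 0 in inflammatory monocytes and, beside 4 that fell, 2 in granulocytes, in the authors' deposited tables. Atg7, an activating enzyme of that conjugation, rose in TAM with 0.64 (adjusted p = 0.00242), while Atg3 fell in granulocytes with -0.49 (adjusted p = 0.000319), on the log2 fold scale of the authors' deposited tables. Of 5 prenylation enzyme genes, none rose and 2 fell, both in TAM: the farnesyltransferase subunits Fnta (-0.51) and Fntb (-0.78) on the log2 fold scale of the authors' deposited table.

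**Figure D5:**
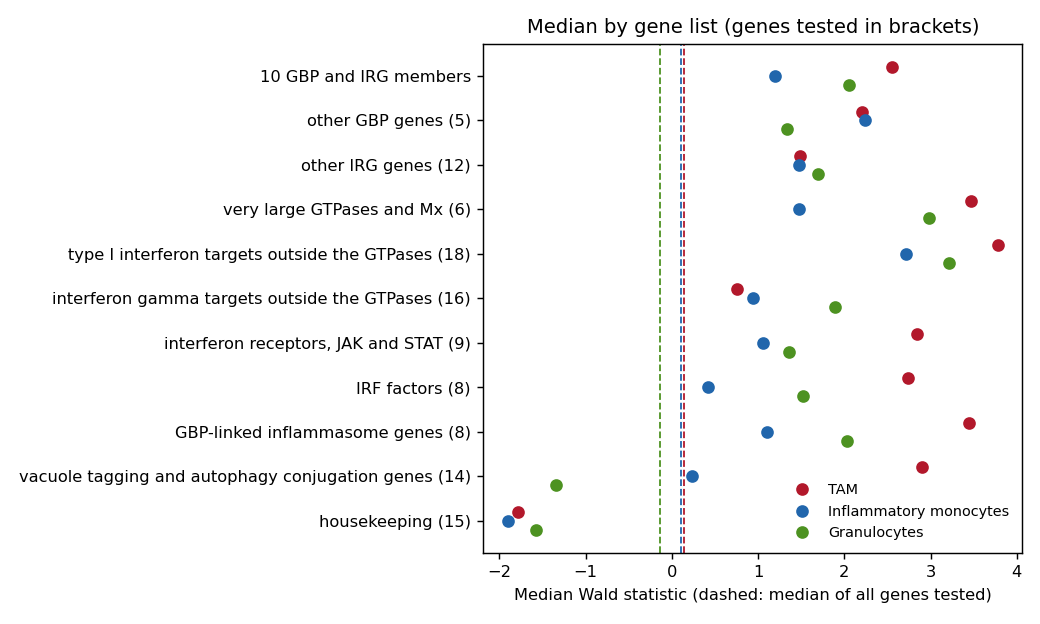
Median Wald statistic (x axis, irradiated against untreated) of the 10 members and of selected gene lists, by subset. The number of genes tested is in brackets, and dashed lines mark the median of all genes tested. The interferon ligand, interferon feedback, prenylation enzyme and cell marker lists are not drawn. The members lie at 2.55 in TAM, 2.05 in granulocytes and 1.2 in inflammatory monocytes, left of type I interferon targets in each subset.

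Some markers of cell types were called in the same comparisons. Beside the counts below, 13.9% of all genes tested rose and 12.5% fell in TAM. The shares that rose and fell were 4.13% and 1.77% in inflammatory monocytes, and 7.32% and 9.9% in granulocytes. Some counts lie near these shares, such as the 2 of 15 housekeeping genes that rose in TAM. In TAM, 5 of 8 classical monocyte markers rose (Ly6c2 by a log2 fold change of 1.96), 9 of 11 neutrophil markers and 4 of 5 eosinophil markers rose by the Wald statistic, and 4 of 9 dendritic cell markers fell in the authors' deposited table. Of those 9 neutrophil markers, Ngp (-0.59), Camp (-0.77), S100a9 (-1.24) and S100a8 (-0.05) have a negative log2 fold in the authors' deposited table, so their direction is uncertain. The neutrophil list's median in TAM was 3.45 for the Wald statistic and -0.05 for the log2 fold change in the authors' deposited table. Of 10 macrophage markers, 2 rose in TAM, 4 in granulocytes and 8 in inflammatory monocytes, and 6 of 11 neutrophil markers rose in inflammatory monocytes, in the authors' deposited tables. T and NK cell markers, from cells that make interferon gamma, had negative Wald statistics for 10, 10 and 11 of 11 genes, with 2 called lower in TAM (Trac and Cd3e), 0 in inflammatory monocytes and 2 in granulocytes (Trac and Klrb1c) in the authors' deposited tables. Of 15 housekeeping genes, 5 fell and 2 rose in TAM, and 2 fell in each other subset, in the authors' deposited tables. Because the tables give 1 mean over all libraries, the level of each marker list per group, and the labelled subset by its markers, could not be checked. The part of these shifts in the GTPase results was not tested.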

How the data were processed

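RNA of sorted TAM, inflammatory monocytes and granulocytes from irradiated and untreated MC38-luc tumours was sequenced. Per the submitters' processing notes, the build was mm39 (GRCm39) and the tools were DESeq2 1.28.1 in R 4.0.2, STAR 2.7.6a and fastp 0.20.1. For counting, strand and annotation, the method is not given in the sources used here. Nextera XT libraries keep no strand, so overlapping genes may share reads.

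The authors deposited 3 tables, and no library was analysed singly, so depth per library is unknown. Of the columns the authors deposited, the mean normalised count is a signal averaged over libraries, identical in all 3 tables for all 55453 genes. The deposited log2 fold changes were taken to be shrunken, since 16 called genes in TAM and 3 in inflammatory monocytes, none of them a member, have a fold and a Wald statistic of opposite sign. The authors deposited the Wald statistic, a score. The p-values and adjusted p-values are the authors' DESeq2 values.

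Members, gene lists and tests were chosen with earlier results of these data known. Calls used adjusted p under 0.05 and the sign of the Wald statistic. All members and all relatives were to be named, and of each other list up to 4 called genes per subset with the smallest p, or, with none called, up to 2 with the highest means. Cxcl9 falls outside that rule and was named after its value was seen, as the 1 gene of its list that fell in TAM. Also outside it are Krt19 in TAM, Rnf213 in inflammatory monocytes and Cdh5 in granulocytes, named to give a share of all genes. S100a8 in TAM was named for its negative fold. The values of Jak2, Ifngr1 and Irf1 outside TAM were added for comparison. Opposite effects were tested on the weaker p-value of a gene, with Benjamini-Hochberg adjustment. Promoters came from RefSeq (GRCm38.p6) and transcripts from GENCODE M21, matched by symbol for 7 and 10 of 10 members. No coordinate was converted between builds. The calls of the main setting, of the robust SD scaling and of the median centring were tested on simulated Wald statistics. The other steps were not tested on simulated data. All steps were run with Python 3.11.15, pandas 2.3.3, numpy 2.4.6 and scipy 1.17.1. Alternatives were other thresholds, a minimum fold, a minimum mean count of 50, another adjustment, centring on the median Wald statistic and scaling by its robust SD (both over genes of mean count 50 or more) and the direction of the fold.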

Additional observations from a re-analysis of the deposited data

How the results depend on the processing

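The number of members that rose in TAM, 6, became 2 at a threshold of 0.01, 2 with a minimum fold (absolute log2 of 1 or more), 3 with p-values adjusted over every gene that has one, 3 after centring on the median Wald statistic, and 0 after division by the robust SD (2.72, 1.56 and 2.09 in TAM, inflammatory monocytes and granulocytes). In inflammatory monocytes, 2 became 0 at a threshold of 0.01, 1 with the minimum fold and 0 with the robust SD. In granulocytes, 3 became 0 with the robust SD, and 2 at a threshold of 0.01, with the minimum fold and with p-values adjusted over every gene, each time without Gbp3. The scaling assumes that most of the spread over genes is noise, and the cause of these losses was not tested. Centring, on the median over genes of mean count 50 or more (0.24 in TAM), turned the sign of Iigp1 in TAM, to a Wald statistic of -0.23, without a call. A threshold of 0.1, a mean count of at least 50 and the direction from the fold changed no call of a member. Counts of members that fell, and of members opposite between subsets, stayed 0 in each alternative run. No paired analysis was possible because no tumour number occurs in both the untreated and the irradiated group and single libraries were not analysed here. For the same reason no library could be left out in turn, so whether 1 library decides a call was not tested.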

Other observations

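Genes other than the members with Wald statistics nearest to the members' medians (2.55, 1.2 and 2.05) were sought by Euclidean distance over the 3 subsets. The 10191 candidate genes had a mean count of at least 50, an adjusted p in all 3 subsets and no predicted name (Gm number or Rik). Relatives with other names, such as Gbp9 and Irgm2, stayed among the candidates. The nearest 5 were Dusp2 (distance 0.16), which encodes a MAP kinase phosphatase, Mlh3 (0.21), a mismatch repair gene, Tap2 (0.22), a peptide transporter of antigen presentation, Lyz1 (0.23), a lysozyme gene, and Fam53c (0.32), from the authors' deposited tables. With 3 subsets the likeness rests on 3 values per gene.

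ISRE cores were also counted in the promoter windows of the other lists. They were present in 9 of 15 type I interferon targets, 3 of 9 interferon gamma targets outside the GTPases and 0 of 11 housekeeping genes with a window. The share over all 27025 genes with a window was 3.99%, so 0 of 11 is near it. GAS matches were found in 3, 1 and 1 genes of these lists in that order, against 9.55% of all genes with a window. Among other IRG genes, 5 of 9 held one, and Irgm2, Tgtp2 and Gm12185 had the same 2-base gap between GAS match and ISRE core as Igtp and Tgtp1.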
